A study of Saccharomyces cerevisiae with 18 samples.

Results

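Deleting residues 1 to 28 of histone H3 in Saccharomyces cerevisiae was compared with the unmutated strain on whole-genome expression arrays. The members were the 2 arrays of the H3 tail deletion with RPD3 intact, titled H3delta(1-28), and the 3 wild-type arrays, 5 of the 18 arrays of the series, over every one of its 9275 probe sets that is not a control. The H3 tail deletion was strain NSY458 and wild type was strain NSY429. The sources used here do not give other alleles of these strains, the number of H3 gene copies, the mating type or the medium. They also do not say that any 2 arrays had RNA of different cultures. A p-value here sets a group difference against the variation between arrays of the same group, pooled over all 18 arrays. That variation may be technical. Each array carried total RNA. For comparison, 3 arrays carried an H3 whose lysines 4, 9, 14, 18, 23 and 27 were changed to glutamine, and 2 arrays carried a deletion of residues 2 to 26 of histone H4.

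The amino-terminal tail of H3 extends from the nucleosome and carries the lysines that are acetylated and methylated at active and silent genes. Acetylated lysines on the tail recruit bromodomain proteins and remodelling complexes, methylation of a lysine close to its end marks the start of active genes, and removal of acetyl groups by deacetylases such as Rpd3 accompanies repression at many promoters. In yeast, the tails of H3 and H4 also take part in the silencing of the mating-type cassettes and of genes next to telomeres, where Sir proteins bind them. Yeast of the alpha mating type expresses alpha-specific genes through the activator Mcm1 with the alpha1 protein, and its pheromone pathway acts through the transcription factor Ste12.

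Signals are in arbitrary units on a linear scale, and a floor of 140.2 was set under them before log2 values were taken. A probe set was tested if it was above that floor on at least 2 of the 18 arrays, which left 7851 probe sets, 6080 of them for 1 gene each and together for 5447 genes. A difference was called at an adjusted p under 0.05 in limma's moderated test with Benjamini-Hochberg adjustment over all tested probe sets, and log2 changes are given with limma's standard error. Signals of different probe sets are not comparable with each other, so levels below are compared between arrays within a gene.

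Run headers contradict the labels of 2 of the arrays compared here. That of the second H3 tail deletion array named the H4 tail deletion strain. That of the second H4 tail deletion array named the H3 tail deletion strain. A further array in the fit, the second with both RPD3 and the H3 tail deleted, had a header naming a strain outside the series. Where arrays are left out for their headers, that array is left out too. Measured values of the second H3 array lay with its label. It correlated at 0.977 with the first H3 array across probe sets and at 0.935 with the mean of the H4 tail deletion arrays. OLI1, a subunit of the mitochondrial ATP synthase encoded in the mitochondrial genome, had 25770.9 and 18303.1 in the H3 tail deletion arrays against 2.7 on each H4 tail deletion array. The a1 gene of the silent cassette, HMRA1, had 45.8 and 101.6 in the H3 tail deletion against 974.8 and 462.2 in the H4 tail deletion. The probe set shared by the 2 H4 genes, HHF1 and HHF2, had 5887.1 and 8097.9 in the H3 tail deletion against 4515.6 and 2916.7 in the H4 tail deletion. The labels were kept, and main results are also given without the doubted H3 array and with the 2 arrays exchanged.

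Sampling days differed between the groups. The H3 tail deletion arrays came from days A and B, with the labels' sampling days lettered in order, and the wild-type arrays from days B, C and H, so that the second H3 array and the first wild-type array form a pair from the same day. The actin 3′ to 5′ signal ratio, a measure of RNA integrity and labelling, was 1.85 and 1.44 in the H3 tail deletion and 1.41, 1.37 and 1.37 in wild type. A fit that included it called 840 probe sets against wild type, and there 55 of the genes chosen for naming lost their call. An amplification kit was named for the third wild-type array alone among these 5. The median absolute log2 difference was 0.28 between the H3 tail deletion arrays and 0.30 to 0.36 between pairs of wild-type arrays.

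Of the 7851 probe sets tested, 1071 (13.6%) were called between the H3 tail deletion and wild type. Signal was higher in the H3 tail deletion for 837 probe sets (10.7%) and lower for 234 (2.98%), with a median log2 change over all tested probe sets of 0.00. The split depended on scaling, at 723 higher and 425 lower after quantile normalization and 644 higher and 440 lower after median centring. Counted by gene, 692 of 5447 rose (12.7%) and 185 fell (3.40%), with a median of 0.05. The H3 tail deletion arrays lay wholly above the wild-type arrays in 1727 probe sets (22.0%) and wholly below in 951 (12.1%). The count depended on both mutant arrays: 673 were called when the first was left out and 431 when the second was. Among the genes chosen for naming, 81 lost their call without the first H3 array, 99 without the second and 131 with sampling day as a block. With the 2 arrays exchanged as their headers name, 756 were called, 570 of them among the 1071. In the same-day pair, all 837 probe sets called higher had a positive difference and all 234 called lower a negative one. That sign is no separate check. The array pair was part of the fit, and arrays did not overlap between the groups in the 837 rises and in 232 of the falls. Without overlap, any pair has the called sign. The median same-day log2 difference was 0.98 for the called rises and -0.69 for the called falls, against 1.13 and -0.89 in the fit. Changes reached at least 2-fold in 520 of the rises and 82 of the falls. Of the 1462 tested probe sets with no gene symbol, 62 were called higher and 27 lower.

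RPD3, the deacetylase gene deleted elsewhere in the series, had 693.6 and 974.6 in the H3 tail deletion and 1001.4, 959.2 and 689.7 in wild type, overlapping ranges (log2 change -0.08 ± 0.21, adjusted p = 0.858). The H3 genes HHT1 and HHT2 shared all their probe sets. The brightest of these had 54115.9 and 35610.0 in the H3 tail deletion and 44787.8, 41927.9 and 57388.6 in wild type. Where these probes lie relative to the deleted codons is not given in the sources used here, so the level does not check the deletion. None of the 5 histone genes on unshared probe sets was called. They were HTB1, HTB2, HTZ1, HHO1 and CSE4, with log2 changes of -0.53 to 0.56.

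The largest fall of a named gene was that of MF(ALPHA)2, which encodes a minor form of the alpha-factor pheromone. Its signal was 628.1 and 2267.2 in the H3 tail deletion against 12060.8, 10551.3 and 17896.4 in wild type, a fall of 11-fold (log2 change -3.46 ± 0.48, adjusted p = 0.000588). The second H3 array was the higher of the pair, and both were under every wild-type array. The alpha-agglutinin gene SAG1, which encodes the cell-surface adhesin of alpha cells, had 1639.6 and 3661.7 against 10455.7, 15815.2 and 19224.8 in wild type (-2.59 ± 0.32, adjusted p = 0.000392). STE3, the receptor for a-factor, had 545.1 and 734.2 against 2612.3, 2659.1 and 2040.4 in wild type (-1.94 ± 0.22, adjusted p = 0.000259). The groups were apart in all of these genes. AFB1, the a-factor barrier gene of alpha cells, fell by 1.58 on the log2 scale, with signals of 2721.4 and 3723.0 against 7599.0, 10358.5 and 10923.3 in wild type.

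One alpha-specific gene was not called. MF(ALPHA)1, the major alpha-factor gene, had 23318.4 and 16663.1 in the H3 tail deletion against 19529.6, 23840.1 and 40152.2 in wild type, overlapping ranges with a log2 change of -0.43 ± 0.29 that was not called (adjusted p = 0.378). Thus 4 of the 5 alpha-specific genes fell, with a list median of -1.94. The same 4 of 5 count was obtained without the first H3 array, without the second, with the 2 arrays exchanged, within the earlier sampling days and with sampling day as a block. The list median was -1.79 with the day block and -1.51 in the same-day pair. The count with exchanged arrays is no separate check. In each of the 4 genes that fell, the second H4 tail deletion array lay under both H3 tail deletion arrays.

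**Figure D1:**
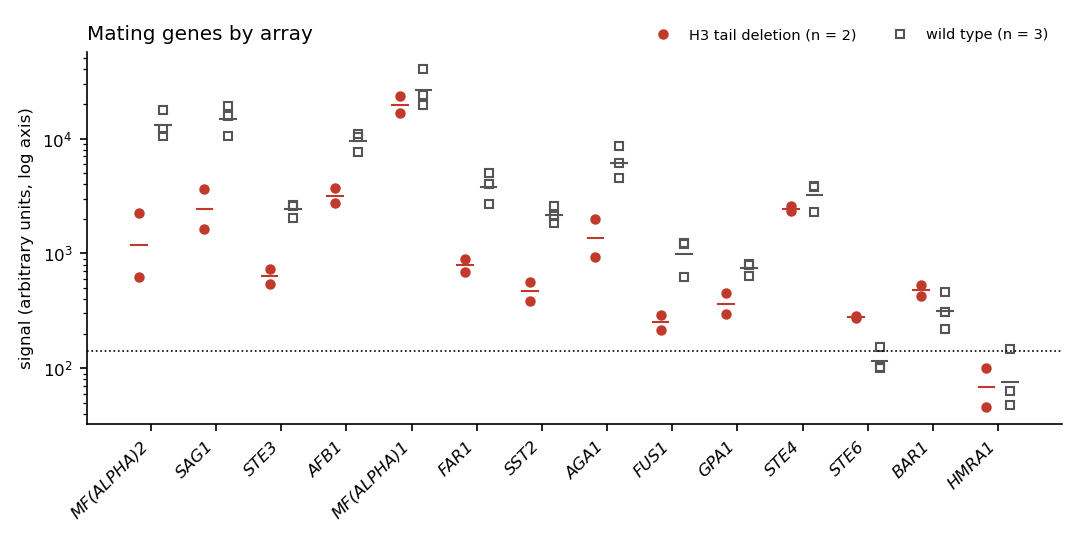
Signal of 14 mating genes on each array, in arbitrary units on a log axis. Filled circles are the 2 H3 tail deletion arrays, open squares the 3 wild-type arrays, horizontal bars the geometric means, and the dotted line the floor of 140.2. MF(ALPHA)2, SAG1, STE3, AFB1, FAR1, SST2, AGA1, FUS1 and GPA1 were lower on both H3 tail deletion arrays than on any wild-type array, while MF(ALPHA)1 and STE4 overlapped.

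Genes of the pheromone pathway also stood among the largest falls. FAR1, which arrests the cell cycle in response to pheromone, had 901.0 and 685.4 in the H3 tail deletion against 5049.2, 2690.7 and 4049.8 in wild type (-2.27 ± 0.26, adjusted p = 0.000245). SST2, the GTPase-activating protein that turns the pheromone signal off, had 389.0 and 567.3 against 1837.6, 2565.5 and 2101.8 in wild type (-2.19 ± 0.26, adjusted p = 0.000268). Both mutant arrays were far under every wild-type array in these genes. AGA1, the anchor subunit of a-agglutinin, fell by 2.17 on the log2 scale, the membrane protein gene PRM4 by 2.05 and the cell fusion gene FUS1 by 1.97. KAR4, a transcription factor of karyogamy, fell by 1.37 and FUS2, a cell fusion gene close to the floor, by 0.38. Of 20 tested pheromone-induced genes, 8 fell and 2 rose, AFR1 by 1.27 and PRM2, called in no setting that left out a wild-type array, by 0.40, with a list median of -0.36. The count of falls was 4 without the first H3 array, 7 without the second and 1 with sampling day as a block. The median with the block was -0.32, beside -0.01 over all probe sets tested. In bulk RNA, fewer cells that express a gene and less of its RNA per cell cannot be told apart.

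Of 12 haploid-specific genes, which cells of either mating type express and diploid cells repress, 2 fell. These were FAR1 and GPA1, the alpha subunit of the pheromone receptor's G protein, with 294.8 and 448.5 in the H3 tail deletion against 631.4, 816.6 and 793.0 in wild type (-1.03 ± 0.24, adjusted p = 0.012), a call lost without the first H3 array. The other subunits of that G protein were not called: STE4 changed by -0.40 ± 0.22 and STE18 by -0.48 ± 0.28. STE12, the pathway's transcription factor, changed by -0.73 ± 0.25 (adjusted p = 0.0718), and the kinase gene FUS3 by -0.70 ± 0.28 (adjusted p = 0.12). RME1, a repressor of meiosis in haploids, was not called at 1.13 ± 0.46. The a1 gene HMRA1 of the silent HMR cassette was under the floor on both H3 tail deletion arrays and on 2 of 3 wild-type arrays, where it had 145.9, 64 and 48.2. Among 4 tested a-specific genes, STE6, the a-factor exporter, rose at a level near the floor, with 276.4 and 282.8 in the H3 tail deletion against 153.3, 100.1 and 103.4 in wild type (0.95 ± 0.19, adjusted p = 0.0043). MFA1, MFA2 and BAR1 were not called, and STE2 and AGA2 were not tested because their signal rarely passed the floor.

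Genes of ribosome assembly mostly had small negative changes. Of 51 tested genes of the small-subunit processome, the complex that processes the precursor of 18S ribosomal RNA, 10 fell, none rose, and 50 had a log2 change below 0 (median -0.49). BUD21, a component of that complex, had 1047.6 and 1421.3 in the H3 tail deletion against 2345.2, 3246.6 and 2087.0 in wild type (-1.04 ± 0.20, adjusted p = 0.0035). Of 61 large-subunit assembly genes 14 fell, none rose and 59 were below 0 (median -0.57). MAK16 and ALB1, both factors of 60S subunit assembly, fell by 1.09 and 1.03, and the helicase gene HAS1 had 931.2 and 1001.4 against 1802.0, 1845.3 and 1718.4 in wild type (-0.89 ± 0.18). Beside them, 3.40% of all tested genes fell.

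RNA polymerase I, which transcribes the ribosomal DNA, had 3 falling genes of 17 (median -0.44). They were RPA135, RPA190 and RPA14, at -0.70, -0.67 and -0.59, against 0 falling without the second H3 array, 1 without the first and 1 without the second wild-type array. None of 10 RNA polymerase III genes was called in limma's test (median -0.30), and none of 18 cytosolic tRNA synthetase genes (median -0.23). Of 81 tested genes listed for cytosolic ribosomal proteins 5 fell (median -0.33), with 77 below 0. That list also counts RPP1, a subunit of RNase P and not a ribosomal protein. Many ribosomal protein genes have a near-identical copy on the genome, so that RPS9A, RPL36B and RPL33B, 3 of the 5, lie on probe sets that can bind the copy. The counts of falling genes rested on single arrays. Without the first H3 array they were 2 of 51, 2 of 61 and 1 of 81 for the processome, the large-subunit factors and the ribosomal proteins. When the second H3 array was left out they were 6, 3 and 1, and without the second wild-type array 4, 1 and 2. The median of the ribosomal proteins was -0.08 without the second H3 array. The medians of the processome and large-subunit lists lay at -0.94 to -0.33 and -0.99 to -0.35 over the settings tried. Genes for mitochondrial ribosomal proteins had a positive median of 0.36, with 10 of 75 rising, a share near the 12.7% of all genes, and none falling, against 4 rising without the second H3 array, 2 without the first and 0 with sampling day as a block. MRPL28, a large-subunit protein, rose by 1.05, and KGD4, counted in this list but a subunit of 2-oxoglutarate dehydrogenase, by 1.36.

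Most general stress genes rose. Yeast raises these genes, many through the transcription factors Msn2 and Msn4, under heat, oxidation, starvation and slow growth. Of 45 tested, 37 rose and none fell, with a median log2 change of 1.63, against 12.7% of all genes rising and a median of 0.05. RTC3, whose product is involved in RNA metabolism, had 2403.9 and 2694.4 in the H3 tail deletion against 385.2, 120.9 and 321.0 in wild type (3.30 ± 0.35, adjusted p = 0.000148), the largest rise named here. TMA10 and SOL4 rose by 2.49 and 2.43, TPS2, the phosphatase that completes trehalose, by 1.63, and HSP12, a small membrane-associated heat shock protein, by 1.52. The number of stress genes called was 28 without the first H3 array, 18 without the second, 28 without the second wild-type array, 17 with sampling day as a block and 11 within the earlier sampling days. The list median was 1.18 in the same-day pair and 1.11 with the block.

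Glycogen and trehalose metabolism overlapped with that list. Of 21 genes, 16 rose and none fell (median 1.58). GPH1, glycogen phosphorylase, had 3803.6 and 4674.6 in the H3 tail deletion against 1359.5, 249.5 and 1071.5 in wild type (2.56 ± 0.52, adjusted p = 0.00515). GLC3, the glycogen branching enzyme, rose by 2.39, GSY2, glycogen synthase, by 2.28, GDB1, the debranching enzyme, by 1.90 and NTH1, neutral trehalase, by 1.58. Genes for making and for breaking down both stores were thus higher. The second wild-type array was the lowest of the wild-type arrays in each of these 5 genes, and the list median was 0.85 in the same-day pair, which does not use it. Without that array 11 of the 21 were called, without the first H3 array 10, without the second 7, with sampling day as a block 8 and within the earlier sampling days 1.

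**Figure D2:**
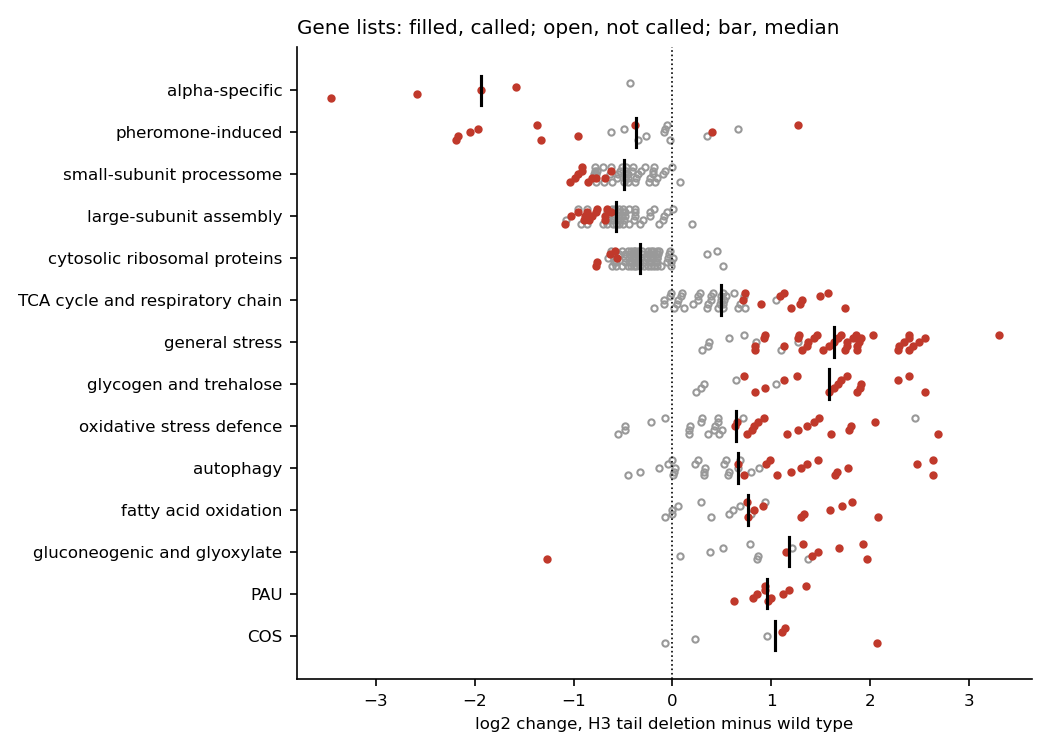
Log2 change between the H3 tail deletion and wild type for every tested gene of 14 lists. Each point is a gene, filled where called at an adjusted p under 0.05 and open where not, and black bars mark list medians. General stress genes centre at 1.63 and alpha-specific genes at -1.94, while both ribosome assembly lists form narrow clouds just below 0.

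Stress genes of other kinds were called less evenly. Of 36 oxidative stress genes 17 rose and none fell (median 0.64), against 11 rising without the first H3 array. SRX1, the sulfiredoxin that repairs oxidised peroxiredoxin, had 1620.9 and 1410.7 in the H3 tail deletion against 232.6, 358.4 and 154.5 in wild type (2.69 ± 0.27, adjusted p = 9.04e-05). GTT1, a glutathione transferase, OYE3, an NADPH oxidoreductase, TRR2, mitochondrial thioredoxin reductase, and TSA2, a peroxiredoxin, rose by 2.05, 1.81, 1.79 and 1.60. Chaperones were split: 7 of 27 rose and 1 fell (median 0.28), with 1 rising without the second H3 array and 4 without the second wild-type array. HSP31, HSP26, HSP12, SSE2 and SSA3 rose by 2.28, 2.03, 1.52, 1.44 and 1.28, while YDJ1, the main cytosolic Hsp40 co-chaperone, fell by 0.87. None of 12 genes of the unfolded protein response was called in limma's test (HAC1, its regulator, changed by 0.05 ± 0.39). Of 17 cell wall integrity genes 6 rose, against 2 without the second H3 array, among them PIR3 and PST1, wall proteins, by 2.14 and 1.61, and GSC2, a glucan synthase subunit, by 1.77.

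Autophagy genes rose in 15 of 36 cases with none falling (median 0.66), against 6 rising without the second H3 array. APE1, a vacuolar aminopeptidase carried by the cytoplasm-to-vacuole pathway, had 2199.2 and 4546.8 in the H3 tail deletion against 692.4, 257.0 and 727.6 in wild type (2.64 ± 0.39, adjusted p = 0.000912). ATG33, required for the removal of mitochondria, had 2739.0 and 3081.6 against 542.7, 249.8 and 742.1 in wild type (2.64 ± 0.35). ATG42, a vacuolar carboxypeptidase, and ATG19, the receptor that carries APE1, rose by 2.47 and 1.78. The list was not uniform, with 21 genes not called, among them the vacuolar lipase ATG15 at 0.66 ± 0.37. In contrast, 1 of 32 proteasome genes changed, RPN3, which fell by 0.48, a call lost when either H3 array was left out.

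Genes for carbon sources other than glucose were higher in part. Of 16 gluconeogenic and glyoxylate genes 7 rose and 1 fell (median 1.18). MLS1, malate synthase, had 2365.3 and 958.5 in the H3 tail deletion against 665.6, 284.1 and 327.3 in wild type (1.93 ± 0.41). PCK1, the key enzyme of gluconeogenesis, had 8906.3 and 5989.7 against 4368.6, 2060.2 and 1321.5 in wild type (1.68 ± 0.41, adjusted p = 0.0144), a same-day difference of 0.46. MAE1, the mitochondrial malic enzyme, was the 1 that fell, by 1.27, a call lost when either H3 array was left out. PCK1 was not called without the first H3 array. Without the first H3 array 3 rose. With sampling day as a block 0 of the 16 rose, 1 fell, and the median was 0.64.

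Beta-oxidation genes were also higher in part. Of 21 fatty acid oxidation genes 10 rose and none fell, with a median of 0.76 and a same-day median of 0.75, and 6 rose without the second H3 array. POT1, the peroxisomal thiolase, had 995.2 and 1119.3 in the H3 tail deletion against 342.3, 291.9 and 266.5 in wild type (1.82 ± 0.22, adjusted p = 0.000312). SPS19, a dienoyl-CoA reductase, YAT2, a carnitine acetyltransferase, and FOX2, the multifunctional enzyme, rose by 2.08, 1.72 and 1.59. Both mutant arrays were above all wild-type arrays in these 4 genes.

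Respiratory genes were called higher in the fit over all arrays but were near 0 within a sampling day. In the TCA cycle and respiratory chain list 11 of 46 rose, with a median of 0.49, but the median was -0.02 in the same-day pair and -0.05 with sampling day as a block, and 2 rose without the first H3 array, 5 without the second and 1 with the block. CIT1, mitochondrial citrate synthase, rose by 1.75 and by 0.99 in the same-day pair. SDH2, a succinate dehydrogenase subunit, had 10651.3 and 8116.0 in the H3 tail deletion against 6885.0, 1930.0 and 3944.3 in wild type, a log2 change of 1.31 with a same-day difference of 0.24. The hypoxic isoform of cytochrome c, CYC7, had 1589.7 and 1597.1 against 315.1, 102.1 and 131.4 in wild type (3.12 ± 0.41, adjusted p = 0.000468), with a same-day difference of 2.34. The aerobic isoform CYC1 was not called (0.48 ± 0.24). COX5B, the hypoxic partner of COX5A, rose by 1.55, and COX5A itself was not called (0.10 ± 0.24). In all, 3 of 16 hypoxic genes rose (median 0.19), these 2 and the cell wall mannoprotein gene TIR3 at 1.28. For comparison, 12.7% of all tested genes rose.

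**Figure D3:**
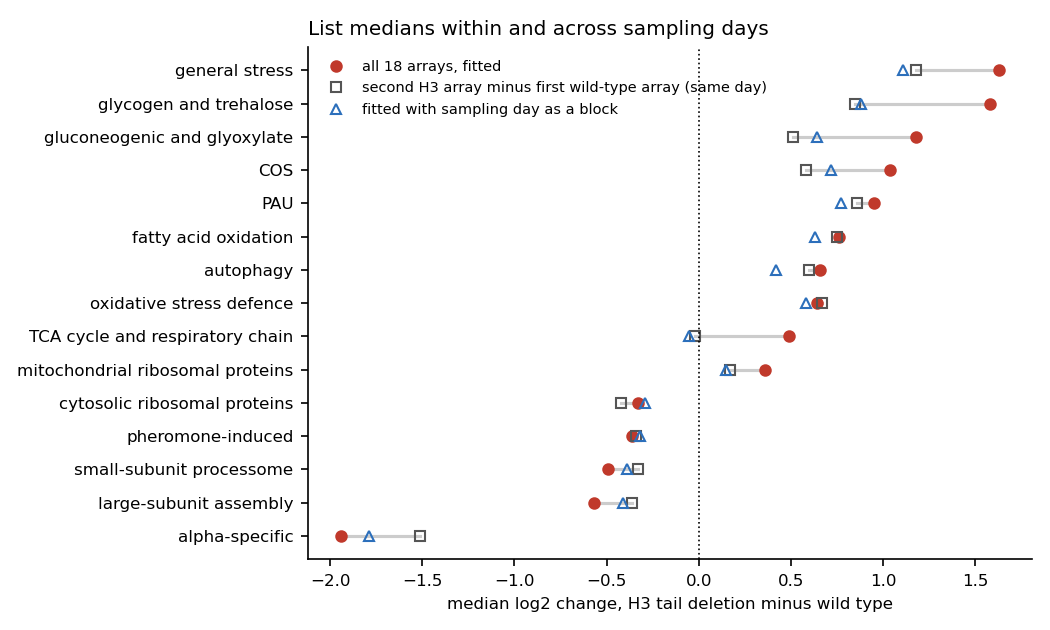
Median log2 change of 15 gene lists between the H3 tail deletion and wild type. Filled circles give the fit over all 18 arrays, open squares the second H3 tail deletion array minus the first wild-type array, both from day B, and open triangles the fit with sampling day as a block. The respiratory list moves to -0.02 and -0.05, while the alpha-specific list stays at -1.51 and -1.79.

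Some genes of hexose uptake and phosphorylation rose. HXT4, a high-affinity glucose transporter, had 6424.5 and 4445.9 in the H3 tail deletion against 1428.1, 352.2 and 931.3 in wild type (2.78 ± 0.53, adjusted p = 0.00377). HXT6 and HXT7, near-identical transporters whose probe sets can bind each other's RNA, rose by 2.24 and 1.80. HXK1, a hexokinase repressed by glucose, had 9197.4 and 5441.7 against 3401.8, 275.2 and 2625.3 in wild type. Its change of 2.39 ± 0.73 (adjusted p = 0.0447) was 0.68 in the same-day pair, the second wild-type array was the low one, and the call was lost when either H3 array was left out. Over all tested genes 12.7% rose. Among 20 glycolysis genes 4 rose (median -0.04). They were HXK1, the glucokinase GLK1, and the minor isoforms PDC6 and PYK2, at 2.39, 1.75, 1.53 and 1.19, against 2 rising when either H3 array was left out and 0 with sampling day as a block. Of 14 hexose transport genes 4 rose, against 1 without the second H3 array and 0 with the block. In the pentose phosphate pathway the minor isoforms SOL4, TKL2 and GND2 rose by 2.43, 1.71 and 1.43 and GND1 by 0.82, while the first enzyme, ZWF1, was not called (0.49 ± 0.19). Of the galactose genes, GAL10, the epimerase, rose by 1.13 and GAL3, the inducer, by 0.67, both calls lost without the second H3 array and with sampling day as a block, while GAL7 was not called (0.70 ± 0.30) and GAL1 was not tested for lack of signal.

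INO1 and PHO5, standard models of chromatin-regulated promoters, were called higher in the fit over all arrays. INO1, inositol-3-phosphate synthase, whose promoter is a known target of Rpd3, had 2328.0 and 2520.3 in the H3 tail deletion against 1003.7, 475.3 and 881.6 in wild type (1.69 ± 0.35, adjusted p = 0.00602, same-day difference 1.33), but was not called without the second H3 array (adjusted p = 0.0617) or with sampling day as a block (adjusted p = 0.239). OPI3, a phospholipid methyltransferase, rose by 1.76 and ITR2, a minor inositol transporter, fell by 0.59. Over all tested genes, 12.7% rose and 3.40% fell. Of the 22 inositol and phospholipid genes, 4 rose and 1 fell (median 0.02), against 1 rising and 0 falling when either H3 array was left out and 0 of each with sampling day as a block. PHO5, the secreted acid phosphatase which phosphate starvation induces, had 6406.2 and 5611.2 against 5262.2, 1084.1 and 1716.3 in wild type (1.49 ± 0.44, adjusted p = 0.0381). The first wild-type array, from the day of the second H3 array, was close to both mutant arrays, with a same-day difference of 0.09. PHO84, the phosphate transporter, was not called, with 1656.8 and 2380.9 against 2327.3, 11174.4 and 3373.7 in wild type. PHO5 was the 1 gene called among 17 of the phosphate list, and its call was lost when either H3 array was left out, without wild-type arrays 2 or 3 in turn and with sampling day as a block (adjusted p = 0.815).

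Meiotic and sporulation genes were raised in a few cases. DMC1, the meiotic recombinase, was the 1 of 21 early meiotic genes that rose, with 378.0 and 431.5 in the H3 tail deletion against 190.5, 139.3 and 198.7 in wild type (1.21 ± 0.27), a call lost without the second H3 array. IME1, the inducer of meiosis, was not called (-0.45 ± 0.33). Of 22 middle and late sporulation genes 7 rose and none fell (median 0.33), and 2 rose without the second H3 array. SPO75, needed for spore wall formation, had 503.2 and 609.0 against 38.0, 22.2 and 51.7 in wild type, all of these under the floor, so that it was at least 3.95-fold higher (adjusted p = 4.44e-05). SPS1, a kinase of spore wall formation, and SPO20, a SNARE of prospore membrane fusion, rose by 1.27 and 0.93. CDA1, a chitin deacetylase of the spore wall, was at 232.9 and 271.5, with all wild-type arrays under the floor.

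Genes near chromosome ends were called higher more often than genes elsewhere. Position was taken as the gene's rank from the nearer end in the R64 gene table. Of 58 tested genes at ranks 1 to 5, 24 rose (41.4%) and none fell, with a median log2 change of 0.42. At ranks 6 to 10, 26 of 116 rose (22.4%), at ranks 11 to 20, 52 of 271 (19.2%), at ranks 21 to 40, 77 of 568 (13.6%), and beyond rank 40, 513 of 4426 (11.6%). The median log2 change followed this order, at 0.32, 0.20, 0.04 and 0.04, and the median same-day differences were 0.40, 0.28, 0.14, 0.08 and 0.04 over the same 5 classes. The share of genes that fell was 0.9%, 1.5%, 3.7% and 3.6% from the second class on. With sampling day as a block, the shares that rose were 10.3%, 3.4%, 6.3%, 2.1% and 3.1% over the 5 classes. The shares with the block thus did not fall at each step, and ranks 6 to 10 lay close to the class beyond rank 40.

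The outer class covered a minority of its genes. Ranks 1 to 5 hold 160 genes in the table, of which 67 had a probe set of their own and 58 were tested. The others shared a probe set with relatives or were under the floor, and a silent gene that stayed silent is not counted. Without probe sets of the kinds that can bind related sequences, 14 of 38 genes at ranks 1 to 5 rose (36.8%) and 506 of 4269 beyond rank 40 (11.9%). The shares were 17.2% and 4.3% without the second H3 array, 34.5% and 6.4% with the 2 arrays exchanged, and 10.3% and 3.1% with sampling day as a block, the last being 6 genes of 58.

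**Figure D4:**
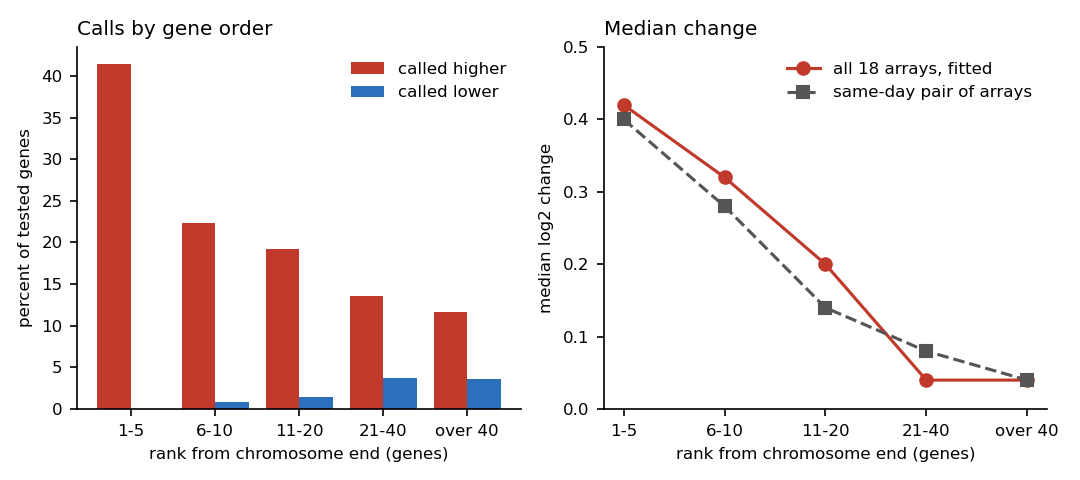
Left, percent of tested genes called higher or lower in the H3 tail deletion than in wild type, by rank from the nearer chromosome end. Right, median log2 change in the same classes, from the fit over all 18 arrays and from the same-day pair of arrays. Rises fall off from 41.4% at ranks 1 to 5 to 11.6% beyond rank 40.

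COS8, a membrane protein gene of a family found next to telomeres, rose by nearly the same amount on both mutant arrays. Its signal was 3134.1 and 3036.7 in the H3 tail deletion against 740.6, 661.1 and 815.7 in wild type (2.07 ± 0.16, adjusted p = 1.64e-05), and the same-day difference was 2.04. COS9, also on an unshared probe set, had 747.8 and 785.6 against 903.9, 760.4 and 776.9 in wild type (-0.08 ± 0.20). Of 6 tested COS genes 3 rose, the others called being COS7 and COS4 at 1.14 and 1.11, on probe sets that can bind relatives, and 1 was called without the second H3 array and 1 with sampling day as a block. All 10 tested PAU genes, cell wall mannoproteins of the seripauperin family that lie mostly near chromosome ends, rose, by 0.62 (PAU7) to 1.35 (PAU3). They lay on probe sets that can bind each other's RNA, so they cannot be read as 10 separate genes, and 3 were called without the second H3 array and 2 with sampling day as a block.

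YPS6, a cell-surface protease at rank 4, had 857.1 and 915.2 in the H3 tail deletion against 178.1, 190.5 and 223.0 in wild type (2.17 ± 0.19, adjusted p = 4.44e-05). It sat in a run of 5 neighbouring tested genes near an end of chromosome IX that all rose, with IRC24, HYR1, GTT1 and PAU15. A run of the same length near an end of chromosome VIII held YHL048C-A, COS8, ARN2, PAU13 and DFP4. Runs of 4 or more rising neighbours numbered 5, of which 1, on chromosome IV, lay far from an end, and there was no run of 4 falling neighbours. YPR196W, a putative maltose-responsive factor at an end of chromosome XVI, was the 1 tested gene at ranks 1 to 10 that fell, by 0.34, with all arrays near the floor and the call lost when either H3 array was left out.

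Another run lay in the allantoin cluster of chromosome IX, where genes for using allantoin as a nitrogen source adjoin each other at ranks 11 to 16. DAL1, allantoinase, had 1428.5 and 979.5 in the H3 tail deletion against 199.4, 328.0 and 257.6 in wild type (2.21 ± 0.31, adjusted p = 0.000652). DAL4, the allantoin permease, DAL2, allantoicase, DAL3, ureidoglycolate lyase, and DCG1 rose by 1.89, 1.41, 1.62 and 1.75. DAL7, a malate synthase in the same cluster, was not called at 0.33, and neither was the allantoate permease gene DAL5, on another chromosome, at 0.58. DAL7 and DAL5 are named here after their values were seen. Away from chromosome ends, UGA1 and UGA2, enzymes of GABA use, rose by 1.80 and 1.43. Of 22 nitrogen and arginine catabolism genes 8 rose and none fell (median 0.32), against 4 rising without the second H3 array.

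Nutrient transport and synthesis genes gave scattered calls, beside 12.7% of all tested genes rising and 3.40% falling. THI4, thiazole synthase of the thiamine pathway, had 1892.0 and 2282.9 in the H3 tail deletion against 621.5, 480.7 and 576.7 in wild type (1.90 ± 0.23, adjusted p = 0.000268), while 9 of the other 10 tested thiamine and vitamin B6 genes were not called. The exception was SNZ1, of vitamin B6 synthesis, at 1.80, not called without the second H3 array. ZRT1, the high-affinity zinc transporter, had 6064.9 and 5513.2 against 1939.8, 3058.4 and 1788.5 in wild type (1.40 ± 0.22), but its regulator ZAP1 was not called (0.05 ± 0.21). Of 25 iron regulon genes 5 rose, FIT2, CCC2, FRE2, FIT1 and ARN2, by 0.90 to 1.12, against 2 without the first H3 array, 1 without the second and 7 without the second wild-type array. In amino acid synthesis LEU4, ARG4, SER3, ARO3 and TRP3 rose by 0.68 to 1.14, LEU9 and ILV2 fell by 0.98 and 0.80, and the list median was 0.04 over 47 genes. Without the first H3 array 3 rose and 0 fell, and without the second 3 rose and 1 fell. LEU4 and LEU9 encode the isoforms of the same enzyme, alpha-isopropylmalate synthase, and moved in opposite directions. Of 31 sulfur and methionine genes 5 rose. MET17, of homocysteine synthesis, had 10229.6 and 12613.3 in the H3 tail deletion against 2428.1, 9947.6 and 2765.9 in wild type, where the second array was near the mutant arrays. Without that wild-type array 12 of the list rose, without the first H3 array 3 and without the second 1. In ergosterol synthesis ERG5, HMG1, ERG6 and ERG2 fell by 1.07, 0.92, 0.65 and 0.56 and ERG20 rose by 0.67, of 23 genes, with 2 falling when either H3 array was left out.

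Calls among genes for chromatin regulators were few in most lists. Of 13 silencing and telomere genes, 2 rose and 1 fell, beside 12.7% and 3.40% of all tested genes. None of 10 histone deacetylase genes was called in limma's test, and none of 29 chromatin remodeler genes (median -0.15). At an unadjusted p under 0.05, 2091 probe sets of all tested passed. Of the Sir proteins, SIR3, a silencing protein that binds histone tails, had 1247.8 and 1515.6 in the H3 tail deletion against 1066.1, 894.5 and 769.8 in wild type (0.61 ± 0.23, adjusted p = 0.101), and SIR1, SIR2 and SIR4 were not called either. SAS4, a subunit of the H4 lysine acetyltransferase SAS, had 651.4 and 919.4 against 321.4, 318.5 and 262.0 in wild type (1.37 ± 0.25, adjusted p = 0.00277), and YKU70, of the Ku complex at telomeres, rose by 0.90, both calls lost without the second H3 array. ABF1, a general regulatory factor, fell by 1.25, although the second H3 array (512.2) lay just above the third wild-type array (509.7). Among 18 histone acetyl- and methyltransferase genes 2 rose, the neighbours HPA2 and HPA3, at 1.02 and 1.07, and GCN5, SET1 and DOT1 were not called, with changes of 0.05 to 0.18. RCO1, a subunit of a small Rpd3 complex, rose by 0.56. Without the second H3 array HPA2, HPA3 and RCO1 were not called, and without the first ABF1 was not.

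Cell cycle lists held few calls. None of 27 genes of the G1/S transition was called, 1 of 21 of G2/M rose (MYO1, a myosin of the bud neck, 0.77), 1 of 14 of M/G1 fell (SUN4, a cell wall protein of septation, 1.12 lower on the log2 scale), and MCM6, a helicase subunit, was the 1 of 16 licensing genes that fell, by 0.94. The calls of MYO1 and MCM6 were lost when either H3 array was left out, and that of SUN4 without the first. Of 11 ribonucleotide reductase and DNA damage genes, HUG1, an inhibitor of ribonucleotide reductase, had 5051.6 and 5832.7 in the H3 tail deletion against 2476.7, 2975.2 and 2865.2 in wild type (0.97 ± 0.15, adjusted p = 0.00115), and RNR3, the damage-induced large subunit, on a probe set that can bind related RNA, rose by 1.35, a call lost without the second H3 array. RNR2 and RNR4 were not called. None of 53 small nucleolar and small nuclear RNA genes was called (median 0.00).

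Other large changes included genes outside these lists. GOR1, glyoxylate reductase, had 1645.4 and 1944.0 in the H3 tail deletion against 321.8, 200.5 and 213.7 in wild type (2.90 ± 0.22, adjusted p = 1.64e-05). YNR064C, an epoxide hydrolase, CMI8, PET117, a cytochrome oxidase assembly factor, GSP2, a Ran GTPase isoform, and STF1, an inhibitor of the mitochondrial ATP synthase, rose by 2.68, 2.65, 2.65, 2.62 and 2.50. MPC3, a mitochondrial pyruvate carrier subunit, had 638.6 and 1088.1 with all wild-type arrays under the floor, at least 5.95-fold higher. INA1, a membrane protein gene, had 1780.7 and 1680.2 against 5978.7, 7529.2 and 6165.7 in wild type (-1.91 ± 0.22, adjusted p = 0.000238). NCA3, a SUN-family protein, BRE5, a cofactor of a ubiquitin protease, and ECL1 fell by 1.94, 1.76 and 1.63, the last not called when either H3 array was left out. ATO3, a plasma membrane transporter, and the tRNA genes YNCK0012C and YNCE0013W fell by 2.13, 2.09 and 2.00. In all 3 the first wild-type array was far under the other wild-type arrays, and the same-day differences were -1.26, -1.23 and -1.11. Wild type had 1097.1, 4892.9 and 2357.8 for ATO3 and 469.2, 1665.0 and 2255.0 for YNCK0012C. Both tRNA genes lie on probe sets that can bind related RNA, so they cannot be read as separate falls.

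The direct comparison of the H3 tail deletion with the H3 lysine substitution called 31 of 7851 probe sets (0.395%). It uses the same H3 tail deletion arrays as the comparison with wild type. By gene, 22 were higher in the H3 tail deletion than in the lysine substitution (0.404%) and 0 lower (0.00%) in limma's test, where 859 and 149 passed an unadjusted p under 0.05. The median log2 difference was 0.19 over all tested genes. No array of the 2 groups shared a sampling day, and all lysine substitution arrays were from the later period, so that day and genotype cannot be told apart here. MF(ALPHA)2 had 628.1 and 2267.2 in the H3 tail deletion against 1503.0, 1069.8 and 813.7 in the lysine substitution (0.13 ± 0.48). SAG1, FAR1, RTC3 and COS8 differed by 0.00 ± 0.32, -0.06 ± 0.26, 0.05 ± 0.35 and 0.09 ± 0.16. A difference that was not called does not show that the mutants act alike.

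DCG1 and DAL2 of the allantoin cluster and PCK1 were called between the H3 mutants, while DAL1, DAL3, DAL4 and DAL7 were not. DCG1 had 561.5 and 544.6 in the H3 tail deletion against 232.0, 197.1 and 223.1 in the lysine substitution (1.35 ± 0.21, adjusted p = 0.0156). DAL2 had 374.6 and 381.0 against 176.3, 140.9 and 175.1 in the lysine substitution (1.21 ± 0.20, adjusted p = 0.0224). PCK1 had 8906.3 and 5989.7 against 1180.1, 1563.1 and 1111.1 in the lysine substitution (2.52 ± 0.41, adjusted p = 0.0224). In each, both tail deletion arrays lay above all lysine substitution arrays. The small nucleolar RNA genes SNR67, SNR61 and SNR66 were higher by 2.44, 2.41 and 2.40, though none was called against wild type, and their signals also differed widely between the H4 tail deletion arrays, 4017.5 and 1109.8 for SNR61. HST4, a sirtuin gene, was higher by 1.25 and the copper transporter gene CTR3 by 1.14. The PAU genes ran the other way, with a median of -0.72 and none of 10 called. The 31 calls depended on single arrays: 3 were made without the second H3 array, 10, 3 and 3 without lysine substitution arrays 1, 2 and 3 in turn, and 1 with the 2 arrays exchanged.

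**Figure D5:**
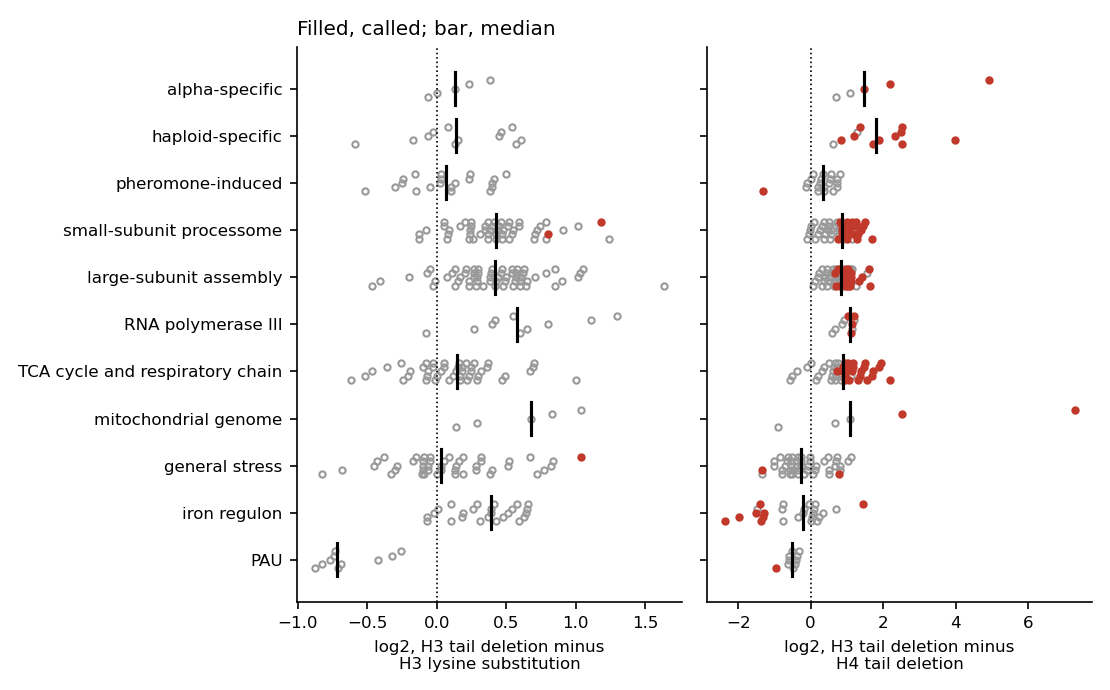
Log2 difference of the H3 tail deletion minus the H3 lysine substitution (left) and minus the H4 tail deletion (right) for the tested genes of 11 lists. Points are genes, filled where called, and bars are list medians. Haploid-specific genes centre at 1.80 in the right panel and at 0.14 in the left.

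The deletion of the H3 tail differed from that of the H4 tail in 817 of 7851 probe sets (10.4%). By gene, 553 were higher in the H3 tail deletion than in the H4 tail deletion (10.2%) and 121 lower (2.22%), with a median of 0.23. The probe sets split into 611 higher and 206 lower, against 425 and 319 after quantile normalization and 305 and 383 after median centring. Without the second H3 array 143 probe sets were called, without the first H4 array 279, without the second 212, and with the 2 arrays exchanged 0, where each group then holds 1 array of each label. MF(ALPHA)1 had 23318.4 and 16663.1 in the H3 tail deletion against 700.1 and 602.8 in the H4 tail deletion (4.92 ± 0.31, adjusted p = 9.63e-07). Of 12 haploid-specific genes 10 were higher in the H3 tail deletion (median 1.80). STE4 had 2318.4 and 2568.2 against 664.9 and 657.1 in the H4 tail deletion, and RDH54, a recombination ATPase, 1251.3 and 2167.5 against 309.5 and 265.0 in the H4 tail deletion. HMRA1 was lower, with the values given at the start, at an adjusted p of 0.000423.

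Other groups also separated the 2 tail deletions. Of 51 processome genes 22 were higher in the H3 tail deletion (median 0.86) and of 61 large-subunit assembly genes 25 (median 0.84), so that the signals were lower still in the H4 tail deletion. Of 46 respiratory genes 24 were higher (median 0.88), beside OLI1, whose signal of 2.7 on both H4 tail deletion arrays is under the floor. General stress genes were called in 2 of 45 cases (median -0.27). Iron regulon genes were lower in 7 of 25 cases and higher in 1. TIS11, which degrades mRNAs under iron shortage, had 100.9 and 182.1 in the H3 tail deletion against 708.9 and 956.6 in the H4 tail deletion (adjusted p = 7.36e-07), and FIT3, a cell wall protein of iron uptake, 10380.6 and 6639.7 against 28362.0 and 37255.5 in the H4 tail deletion. COS8 was lower by 0.82 and YPS6 higher by 0.97 in the H3 tail deletion, so that these 2 genes near an end did not share a direction. By class, the median log2 difference from the H4 tail deletion was -0.06 at ranks 1 to 5 and 0.16 at ranks 6 to 10. It was 0.21 at ranks 11 to 20, 0.22 at ranks 21 to 40 and 0.24 beyond rank 40.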

How the data were processed

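The authors deposited 1 table of intensity values, linear and in arbitrary units, with a column for each of 18 one-colour Affymetrix YG_S98 arrays in 8 groups. The deposited values share a 2% trimmed mean of 1501 to 1502. No source used here gives the software behind them or a genome build. Chip lots and free text of the runs, which are other than measurements, came per the file headers and served as batches beside the labels' sampling days.

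Arrays were rescaled to equal trimmed means, and signals floored at the pooled 25th percentile (140.2) before log2, so a change against a floored group is a lower bound. Probe sets were named through the platform's probe table and matched to the R64 gene table for all 6504 that name 1 gene. A gene with several probe sets was read from the plain kind, then the brightest. limma 3.58.1 in R 4.3.3 fitted all 18 arrays with a mean per group (10 residual and 3.76 prior degrees of freedom, trended variance), two-sided, with Benjamini-Hochberg adjustment per comparison. Tables were summarised in Python 3.11. The number of arrays limits the precision. The fit was tested on simulated data.

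Members, lists and comparisons were chosen with earlier results of these data known. Named genes were the 15 largest rises and falls whose arrays did not overlap, members of lists of up to 12 tested genes, up to 5 called members per direction and the median member of longer lists, a set of chromatin-related genes, and leading genes near chromosome ends and in the direct comparisons, and the text gives a part of them. Rank in gene order replaced distance from the end, and promoter motifs were not analysed here. Replicate numbers did not pair the arrays: deviations correlated at -0.282 for number 1 and 0.033 for number 2. Alternatives in normalization, floor, filter, batch, pairing and left-out arrays are given in the closing section.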

Additional observations from a re-analysis of the deposited data

How the results depend on the processing

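Against wild type, the 1071 calls fell to 258 with arrays of the earlier sampling period only, 290 with sampling day as a block, 455 without the arrays whose headers name another strain and 56 with only the arrays of the 2 groups. Leaving out 1 array gave 431 to 1265. Quantile normalization gave 723 rises and 425 falls, and median centring 644 and 440, against 837 and 234, with medians over all tested probe sets of -0.04 and -0.09. The actin ratio as a covariate gave 840. With the replicate number as a block, 958 were called against wild type, 5 against the lysine substitution and 978 against the H4 tail deletion.

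Against the H3 lysine substitution, the 31 calls became 1 with the 2 arrays exchanged, 8 with the actin ratio, 97 without the header arrays, 7 with chip lot, 9 with sampling period, 14 with the floor at the 10th percentile, 15 with log2(signal + 50), 69 with median centring (16 higher, 53 lower), 108 with only the arrays of the 2 groups, 11 with quantile normalization and 3 to 27 without 1 array. Against the H4 tail deletion, the 817 calls became 0 with the 2 arrays exchanged and 0 with only the 2 groups in limma (154 and 1954 at an unadjusted p under 0.05), 242 with the earlier period, 87 without the header arrays, 259 with chip lot, 305 with day, and 143 to 604 without 1 array. The cause was not tested. A day block could not be fitted against the lysine substitution, which shares no day with the H3 tail deletion. The alternatives with exchanged arrays and the earlier period were chosen after seeing the data. No named gene that was called turned its sign in the settings run, while list medians near 0, among them those of the respiratory, glycolysis and G1/S lists, did. With 2 and 3 arrays, modest changes in dim genes could not be resolved.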

Other observations

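The largest falls of all belonged to 4 probe sets with consecutive identifiers and no gene symbol in the platform's table, 2 of which are described here, chosen after their values were seen. Probe set 3954_at had 10.1 and 17.1 in the H3 tail deletion, both under the floor, against 3998.3, 5001.5 and 4236.0 in wild type, at least 31.3-fold lower (limma's adjusted p = 0.000764). Probe set 3953_at had 10.4 and 9.8 in the H3 tail deletion against 3146.5, 3669.1 and 4681.1 in wild type, at least 27.0-fold lower (limma's adjusted p = 0.000765). Both mutant arrays were dark and all wild-type arrays bright. The lysine substitution arrays had 289.7, 3109.4 and 3281.2 for 3954_at, the first standing apart, and the H4 tail deletion arrays 8544.5 and 6591.9. The array whose header names the H4 tail deletion strain was thus as dark as the first H3 tail deletion array. What these probe sets bind was not analysed here.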
